A study of Mus musculus with 6 samples.

Results

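Cadherins and protocadherins are calcium-dependent adhesion proteins, and DNA methylation over their genes was compared here between the ventricles of newborn mice and those of mice at 14 days. The set was taken from the deposited table as every region assigned to a gene named Cdh and a number, or to a gene whose name begins with Pcdh. It held 458 lines, which collapsed to 454 distinct intervals under 53 gene names, out of 213957 distinct regions in the table. All 454 were peaks, the short regions in which captured DNA was enriched, of 101253 peaks in all. Of these, 66 peaks under 24 names belong to the clustered protocadherins on chromosome 18, and 388 peaks under 29 names belong to single genes. Nothing measured entered the choice of these genes, but the set was proposed with earlier results of these data in view.

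The samples were ventricles of male C57BL/6 mice, with no allele or treatment named, at postnatal day 1 (P1, 3 libraries) and postnatal day 14 (P14, 3 libraries). The labels call the tissue cardiac left ventricle, while the labels' protocol describes ventricles with the septum kept and the atria removed. The libraries of an age are labelled as biological replicates, and the sources used here do not say how many hearts went into each. Sonicated genomic DNA was captured through a methyl-CpG binding domain and sequenced (MBD-seq), so a read count rises with the number of methylated CG dinucleotides in a fragment and cannot be read as the methylation of any single one. The DNA came from whole tissue, in which a shift in the mix of cells and a shift within cells cannot be told apart. Captured DNA does not report expression, so the labelled tissue could not be checked through marker transcripts.

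Classical cadherins span the cell membrane, bind the same cadherin on the neighbouring cell through their outer domains, and hold catenins at their inner tail, which link them to actin. In heart muscle the main one is N-cadherin (Cdh2), which sits with desmosomal proteins in the intercalated disc, the junction that couples myocytes end to end, and endothelial cells rely on VE-cadherin (Cdh5). Protocadherins lack the classical catenin-binding tail. Most of those in the clusters are made from a large array of variable first exons, each with its own promoter, spliced in the alpha and gamma groups to shared constant exons, while each beta gene is 1 exon, and methylation of these first exons is known from neurons to accompany the choice of promoter.

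The libraries held 16284216 to 21512072 reads each. Between 11.58% and 13.39% of the reads of a P1 library fell in peaks, and between 16.99% and 31.31% of those of a P14 library, with P14 replicate 1 at the top, and a member peak held a median of 15 to 16 reads per P1 library and of 55.5, 29 and 22 reads in P14 replicates 1 to 3. Peaks were therefore scaled to each other: levels are read counts scaled to a common total of reads in peaks (CPM), with trimmed-mean factors, and a log2 change is P14 over P1 relative to the other peaks. Tests are those of edgeR's quasi-likelihood fit over all 96772 peaks with enough reads, adjusted by Benjamini-Hochberg. A peak is called lost or gained where its adjusted p was under 0.05 with a lower or higher value at P14. Scaled instead to the reads between peaks, the median of all peaks moved from -0.01 to 1.10 on the log2 scale, so every direction below is relative to the other peaks. On that scaling 64 members were gained and 1 lost, against 9.76% and 0.117% of all peaks. Some values below come from a fit with the share of reads in peaks as a covariate. Every P14 library had a higher share than every P1 library, so that fit cannot part the share from age.

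Methyl-CpG capture acts on CG dinucleotides, and the promoter sequences show how many of these the members carry where their transcripts begin. RefSeq promoter windows (GRCm38.p6, 250 bases before to 50 after a transcript start) were matched by symbol to 18 of the 29 genes outside the clusters, with 21 windows. The 21 windows held a median of 18 CG dinucleotides, against 7 over all 32851 windows, of which 94.6% hold at least 1 CG on either strand. None of the 21 windows lay in a peak, against 7.58% of all windows. Shown here are 3 genes with a lost peak far from the window and Cdh23, the gene with the most peaks, whose window holds few CG. Each is written 5′ to 3′ on the gene's strand, with CG in capitals.

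Pcdh17, chr14:84443313-84443612, plus strand: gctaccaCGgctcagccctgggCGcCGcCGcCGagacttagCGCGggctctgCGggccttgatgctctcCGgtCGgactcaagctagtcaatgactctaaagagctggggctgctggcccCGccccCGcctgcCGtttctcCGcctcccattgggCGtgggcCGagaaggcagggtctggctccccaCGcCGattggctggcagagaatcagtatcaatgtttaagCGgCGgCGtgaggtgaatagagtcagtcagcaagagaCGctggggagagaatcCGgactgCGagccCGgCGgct

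Cdh8, chr8:99416422-99416721, minus strand: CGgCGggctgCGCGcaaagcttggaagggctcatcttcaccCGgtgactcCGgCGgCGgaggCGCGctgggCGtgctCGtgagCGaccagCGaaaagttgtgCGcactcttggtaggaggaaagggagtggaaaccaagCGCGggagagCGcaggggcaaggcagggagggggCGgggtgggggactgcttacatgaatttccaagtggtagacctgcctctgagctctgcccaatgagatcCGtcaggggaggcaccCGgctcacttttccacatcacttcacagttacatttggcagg

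Cdh18, chr15:23036213-23036512, plus strand: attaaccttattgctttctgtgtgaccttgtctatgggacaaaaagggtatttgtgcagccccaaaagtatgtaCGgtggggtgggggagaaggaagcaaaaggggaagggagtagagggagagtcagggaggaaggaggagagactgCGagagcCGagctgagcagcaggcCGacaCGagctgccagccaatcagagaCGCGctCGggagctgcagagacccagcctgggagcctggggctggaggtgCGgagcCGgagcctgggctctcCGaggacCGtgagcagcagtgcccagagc

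Cdh23, chr10:60696441-60696740, minus strand: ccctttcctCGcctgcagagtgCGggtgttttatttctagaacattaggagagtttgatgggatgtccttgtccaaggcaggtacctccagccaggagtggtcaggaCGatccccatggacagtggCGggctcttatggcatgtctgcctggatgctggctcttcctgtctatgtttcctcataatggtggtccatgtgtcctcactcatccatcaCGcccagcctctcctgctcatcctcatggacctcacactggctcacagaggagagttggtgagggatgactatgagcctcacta

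The Pcdh17 window holds 26 CG, more than 83.1% of all windows, and the nearest peak of the gene lies 25332 bp away. The Cdh8 window holds 21 CG with its nearest peak at 177157 bp, and the Cdh18 window 12 CG with its nearest peak at 57194 bp. The Cdh23 window holds 5 CG, and its nearest peak lies 2693 bp away. The peaks of these genes thus lay away from these start sites. Of the 388 peaks outside the clusters, 383 overlapped the RefSeq span of their own gene. Exons, introns and untranslated regions inside a span were not told apart here.

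Over the whole set, 433 peaks had enough reads to be tested and 21 did not, and 51 of the 53 gene names kept a tested peak. Of the 433, 9 were lost at P14 (2.08%) and 0 were gained, against 2.43% lost and 0.105% gained over all tested peaks. At an unadjusted p under 0.05 there were 20 higher and 19 lower peaks, against 2.36% and 5.25% of all peaks, and DESeq2 called 10 lost and 0 gained, against 2.84% and 0.0966% of all peaks. The share lost was thus near that of peaks at large. The median log2 change was 0.04, against -0.01 over all peaks. All 3 P14 libraries lay above all 3 P1 libraries at 29 peaks and below them at 27, against 4.78% and 7.11% of all peaks.

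A log2 change below -1 was found at 17 of the 433 tested peaks. The fit without P14 replicate 1 reuses the other counts that picked them, and in it all 17 stayed below -1. They made up 3.93%, against 4.77% of all peaks below -1, and belong to 10 gene names: Pcdh15 with 4, Cdh2, Cdh8, Cdh18 and Pcdhga3 with 2 each, and Cdh4, Cdh13, Pcdh7, Pcdh9 and Pcdh17 with 1 each. A log2 change above 1 was found at 9 peaks (2.08%, against 1.52% of all peaks).

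**Figure D1:**
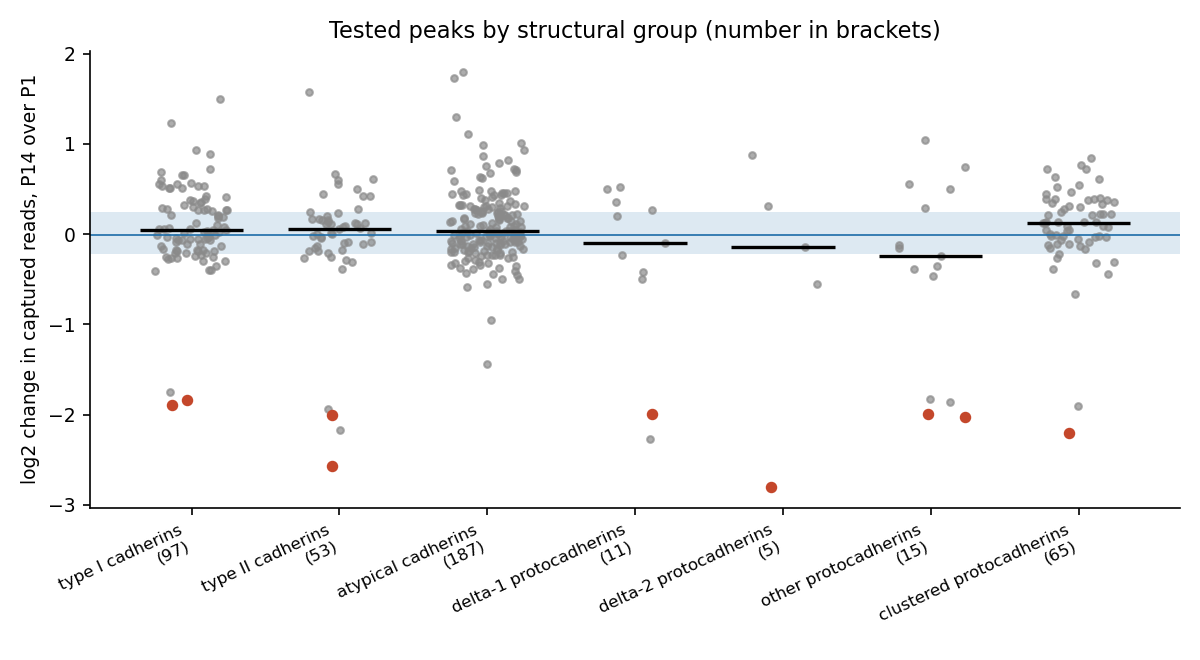
Log2 change (P14 over P1, vertical axis) of each of the 433 tested peaks by structural group, with the number of peaks in brackets. Red points are the 9 lost peaks, black bars group medians, the blue line the median of all 96772 peaks and the blue band their middle 50%; the lost peaks lie in 6 of the 7 groups, between -2.80 and -1.84, while the medians of the groups lie between -0.24 and 0.13.

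Among the classical type I cadherins, 2 of 97 tested peaks were lost and the median was 0.04. Both lost peaks are in Cdh2, on chromosome 18 but outside the protocadherin clusters. The peak at 16607472 to 16608334 had 33, 18 and 25 reads in the P1 libraries and 19, 12 and 12 in those of P14, or 12.02 ± 4.41 CPM against 3.31 ± 0.86 (SD, n = 3 libraries per age). It was 3.72-fold lower at P14 (log2 change -1.90, SE 0.39, edgeR adjusted p = 0.0252). The peak at 16686641 to 16687305 held 16, 21 and 22 reads and then 16, 13 and 6, or 9.13 ± 0.93 against 2.55 ± 0.67 CPM (SD, n = 3), and was 3.57-fold lower (-1.84, SE 0.42, edgeR adjusted p = 0.0298). At both, every P14 library lay below every P1 library in CPM. The other 6 Cdh2 peaks had log2 changes from -0.19 to 0.29, with overlapping ages.

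Cdh4, R-cadherin, known from retina and from developing muscle and brain, had 62 tested peaks with a median of 0.02 and 0 calls. Cdh15, M-cadherin, a cadherin of skeletal muscle precursors, had the densest coverage of any single gene, with 9 peaks in a span of 19 kb, or 47.3 per 100 kb. Its median was 0.36, above that of all peaks, and 0.27 without P14 replicate 1, but the smallest adjusted p was 0.356 and the table assigns the same peaks to Gm20388 as well. The highest type I level was its peak at chromosome 8, 122858894 to 122862375, at 34.6 ± 3.69 CPM at P1 and 34.8 ± 6.72 at P14 (SD, n = 3). That peak held 75, 79 and 68 reads and then 310, 118 and 89, the ages overlapped in CPM, and the log2 change was 0.02 (SE 0.23). The epithelial cadherins Cdh1 and Cdh3, neighbours on chromosome 8, had medians of 0.05 and 0.05 over 8 and 10 tested peaks and 0 calls.

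In the type II cadherins, whose outer domain carries a different adhesive interface, 2 of 53 tested peaks were lost and the median was 0.05. Both belong to genes best known from the nervous system. The Cdh18 peak on chromosome 15 (22789306 to 22789967) held 14, 16 and 19 reads in the P1 libraries and 4, 6 and 6 in the P14 libraries, or 7.60 ± 0.85 against 1.41 ± 0.80 CPM (SD, n = 3). This was a 5.96-fold lower level (log2 change -2.58, SE 0.55, edgeR adjusted p = 0.0258), with no overlap between ages. It lies 246.8 kb before the start site whose window is printed above, inside the longer RefSeq span of the gene. A further Cdh18 peak (23099492) held 38, 14 and 12 reads and then 2, 14 and 15. Its log2 change of -1.93 (SE 0.66) had an edgeR adjusted p of 0.171. Only 3 of the 7 Cdh18 peaks had enough reads for the test.

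The Cdh8 peak on chromosome 8 (99238621 to 99239265) lies 177.5 kb into the gene from the start site printed above. It held 20, 13 and 20 reads in the P1 libraries and 7, 10 and 9 in the P14 libraries, or 8.32 ± 2.27 against 2.24 ± 1.15 CPM (SD, n = 3), a 4.003-fold lower level (log2 change -2.001, SE 0.51, edgeR adjusted p = 0.0415). A second Cdh8 peak (99175761) held 28, 11 and 11 reads and then 2, 11 and 8. It also had P14 below P1 in every library, but its log2 change of -2.17 (SE 0.66) had an edgeR adjusted p of 0.0938. The third, at 99145988, had -0.15.

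The type II genes of known heart cell types gave no calls. Cdh5, the endothelial junction cadherin, had 7 tested peaks with a median of 0.01. Its peak with the smallest p (chromosome 8, 104136573 to 104137517) held 5, 16 and 20 reads and then 63, 31 and 26, a log2 change of 0.44 (SE 0.39, edgeR adjusted p = 1.00) with overlapping ages. Cdh11, a cadherin of fibroblasts and other mesenchyme, had 2 of 4 peaks tested, and the one with the smallest p (102634249 to 102634953) held 13, 13 and 13 reads and then 37, 24 and 9, a log2 change of -0.31 (SE 0.42). Cdh22 had the most type II peaks, 24 tested with a median of 0.12. Its peak at chromosome 2, 165116037 to 165116764, held 5, 10 and 7 reads and then 109, 18 and 29, a log2 change of 1.57 (SE 0.46, edgeR adjusted p = 0.0774), and 1.11 without P14 replicate 1. The highest type II level was a Cdh24 peak also assigned to Gm20726 (chromosome 14, 54631460 to 54634076), at 26.5 ± 5.69 and 29.3 ± 9.58 CPM (SD, n = 3). The single peaks of Cdh7 and Cdh12 had too few reads to test.

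At an unadjusted p under 0.05, 7 peaks of the atypical cadherins were higher and 2 lower, against 2.36% and 5.25% of all peaks. The group had 187 tested peaks, 0 lost and 0 gained, with a median of 0.03. Cdh23, a long cadherin of the tip link of sensory hair cells, and Cdh13, T-cadherin, which lacks a cytoplasmic tail, is tethered by a lipid anchor and binds adiponectin in heart and vessels, held most of them. Together with Cdh4 these genes account for 245 of the 454 peaks. The 3 genes differ in peak density, with 23.9 peaks per 100 kb in Cdh23, 13.6 in Cdh4 and 7.51 in Cdh13.

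Cdh23 had 89 tested peaks with a median log2 change of 0.17. All P14 libraries lay above all P1 libraries at 9 of them and below at 0, where the shares of all peaks (4.78% and 7.11%) are the background. Its peaks held 0.0651%, 0.0660% and 0.0669% of the reads in peaks at P1 and 0.0977%, 0.0792% and 0.0779% at P14. Every P14 library thus lay above every P1 library in that share, and P14 replicate 1 lay highest. The same held for all members together, which took 0.425% to 0.433% at P1 and 0.454% to 0.532% at P14. These shares carry no trimmed-mean factors. Without those factors the median log2 change of all peaks was 0.147, against -0.01 with them, so peaks at large also rose on that scale. Without P14 replicate 1 the Cdh23 median was 0.09, and it was 0.09 with each library's share of reads in peaks as a covariate. The peak with the smallest p (chromosome 10, 60564193 to 60565446) held 9, 9 and 13 reads in the P1 libraries and 105, 36 and 33 in the P14 libraries, or 4.81 ± 0.96 against 11.8 ± 2.59 CPM (SD, n = 3). Its log2 change of 1.30 (SE 0.35) narrowly missed the threshold (edgeR adjusted p = 0.0508), and it was the 1 gained member, with an adjusted p of 0.0464, when peaks with few reads were kept in (0.113% of all peaks gained and 2.6% lost, with 14 members lost). In a fit over all regions without P14 replicate 1, the gained members were 3, another Cdh23 peak (60630370) and 2 gamma protocadherin peaks, against 0.363% gained and 0.0269% lost of all peaks. The 5 untested Cdh23 peaks had few reads.

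Cdh13 had 89 tested peaks with a median of -0.08. The ages were apart with P14 higher at 2 of its peaks and lower at 6, against 4.78% and 7.11% of all peaks. Its peak at chromosome 8, 118764100 to 118765402, held 29, 18 and 21 reads and then 21, 16 and 15, or 10.7 ± 3.52 against 4.10 ± 1.23 CPM (SD, n = 3), and the log2 change of -1.44 (SE 0.39) had an edgeR adjusted p of 0.0546. At the other end, the peak at 119109394 to 119110003 held 4, 2 and 3 reads and then 38, 18 and 12, a log2 change of 1.73 (SE 0.57, edgeR adjusted p = 0.145). Neither passed, so no Cdh13 peak was called in either direction. Its share of reads in peaks, without trimmed-mean factors, was 0.0832% ± 0.0032 at P1 and 0.0866% ± 0.0033 at P14 (SD, n = 3), with overlapping ages. The highest atypical level was its peak at 119005377 to 119008742, at 38.1 ± 6.87 and 32.3 ± 1.498 CPM (SD, n = 3, log2 change -0.24, SE 0.22).

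**Figure D2:**
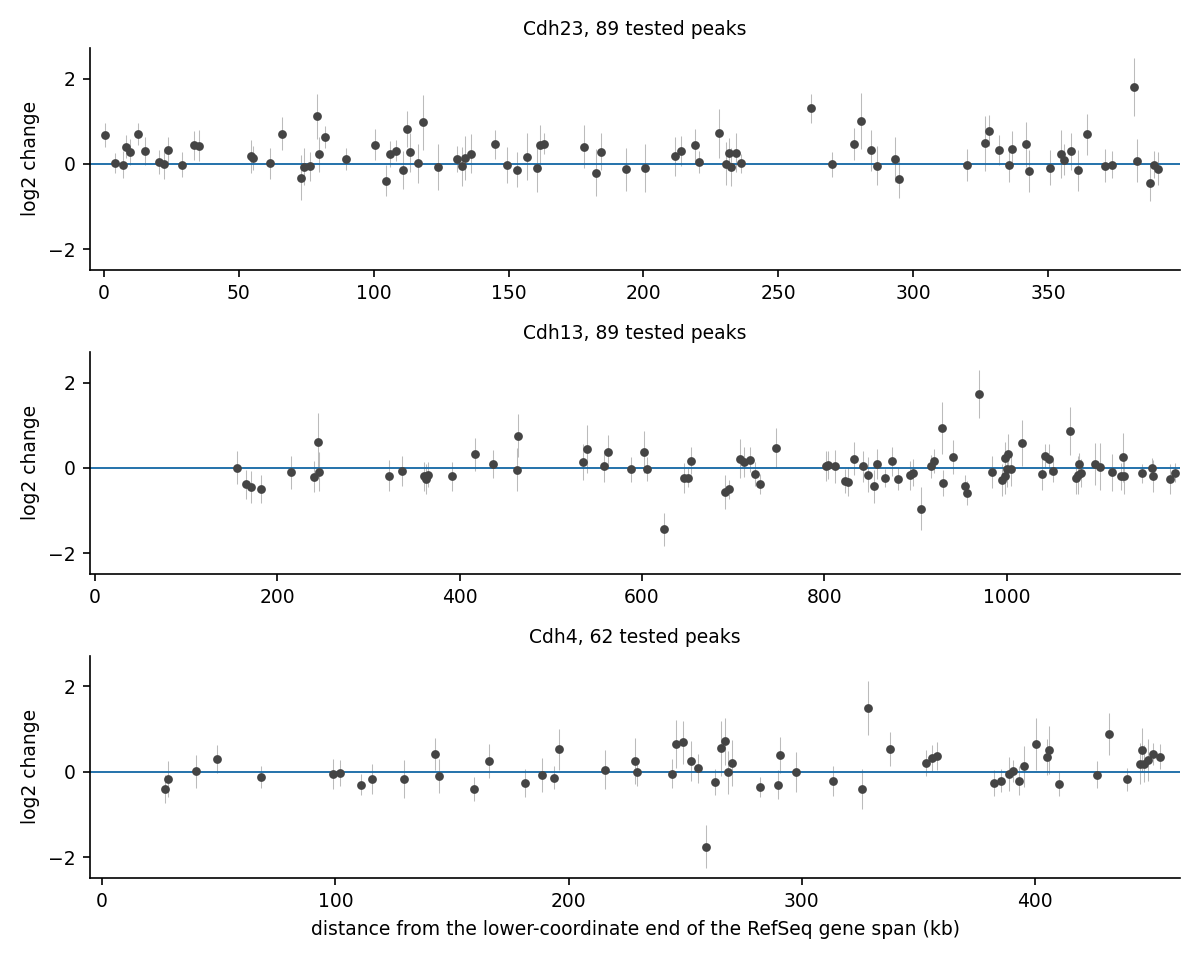
Log2 change (P14 over P1, points, with bars of 1 SE) of each tested peak in Cdh23, Cdh13 and Cdh4 by distance in kb from the lower-coordinate end of the RefSeq span. The line is the median of all tested peaks, at -0.01. Most points lie within 1 log2 unit of 0 along the whole of each gene, and none was called.

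The protocadherins outside the clusters had few peaks, 31 tested, of which 4 were lost (12.9%, against 2.43% of all peaks) and 0 gained, with a median of -0.15. The median was negative in each of the 3 groups: -0.10 over 11 peaks of the delta-1 group, -0.14 over 5 of the delta-2 group and -0.24 over 15 others. These are counts of 4 or fewer in genes with long spans and sparse peaks, and no test compared the list with other peaks. Lost peaks were also more frequent among all peaks under 1200 bp (3.08%) than among wider ones (0.611%), and the peaks of this list had a median width of 769 bp against 852 bp over all peaks. Whether width has a part in the 12.9% was not tested.

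In the delta-1 group, whose members share conserved motifs in the tail, Pcdh7 had the highest level of the 9 lost peaks at P1. Its peak on chromosome 5 (58110386 to 58111190) held 38, 26 and 35 reads and then 11, 25 and 13, or 15.6 ± 3.86 against 4.17 ± 2.47 CPM (SD, n = 3), a 3.99-fold lower level (log2 change -1.998, SE 0.42, edgeR adjusted p = 0.0253). It lies 392.7 kb downstream of the start site of the gene's promoter window. The second Pcdh7 peak (58076165) had -0.42 (SE 0.38). Pcdh9 had a peak at 93454551 with 26, 10 and 11 reads and then 1, 7 and 10, whose log2 change of -2.27 had an edgeR adjusted p of 0.112. Pcdh1, expressed in epithelia and endothelium, went the other way in value. Its peak on chromosome 18 (38197078 to 38199742), the highest level of the whole set, held 69, 115 and 104 reads and then 603, 238 and 121, or 44.4 ± 8.38 against 62.2 ± 19.8 CPM (SD, n = 3). The ages overlapped, and the log2 change of 0.50 (SE 0.25, edgeR adjusted p = 0.756) was 0.25 without P14 replicate 1 and -0.07 with the share of reads in peaks as a covariate.

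In the delta-2 group, the single Pcdh17 peak was lost. It lies on chromosome 14 (84468944 to 84469490), 25.7 kb downstream of the start site printed above, and held 24, 16 and 15 reads in the P1 libraries and 1, 9 and 5 in the P14 libraries, or 8.69 ± 3.02 against 1.41 ± 1.13 CPM (SD, n = 3). The level was 6.98-fold lower (log2 change -2.80, SE 0.64, edgeR adjusted p = 0.0291) and the log2 change was -2.02 without P14 replicate 1, whose single read was the lowest value, and -0.62 with the share of reads in peaks as a covariate. The other delta-2 genes gave no calls. Pcdh19, on the X chromosome, had 1 peak with 11, 12 and 9 reads and then 96, 27 and 18, whose log2 change of 0.87 (SE 0.39, edgeR adjusted p = 0.555) was 0.44 without P14 replicate 1. Pcdh18, expressed in mesenchyme, had a higher level of 13.6 ± 4.05 and 12.5 ± 2.12 CPM (SD, n = 3) at its stronger peak, and overlapping ages.

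Pcdh15, the partner of Cdh23 in the hair cell tip link, had 13 tested peaks with a median of -0.24. The peak on chromosome 10 at 74211624 to 74212216 held 18, 13 and 15 reads and then 8, 9 and 6, or 7.23 ± 1.72 against 1.84 ± 0.65 CPM (SD, n = 3), a 4.07-fold lower level (log2 change -2.02, SE 0.51, edgeR adjusted p = 0.0391). The peak at 74381011 to 74381600 held 13, 13 and 14 reads and then 13, 5 and 4, or 6.23 ± 0.41 against 1.49 ± 0.26 CPM (SD, n = 3), a 3.99-fold lower level (-1.997, SE 0.50, edgeR adjusted p = 0.0391). The ages did not overlap in CPM at either. Peaks at 73776270 and 73378722 had log2 changes of -1.83 and -1.86 but edgeR adjusted p of 0.0652 and 0.115. So Cdh23 and Pcdh15, whose proteins join in 1 filament, had medians of opposite sign, 0.17 and -0.24, and remained so without P14 replicate 1, at 0.09 and -0.25; the difference between the genes was not tested. Pcdh12, an endothelial protocadherin, had 2 peaks, of which that with the smaller p (chromosome 18, 38268520 to 38269532) held 7, 24 and 16 reads and then 88, 38 and 28, a log2 change of 0.56 (SE 0.35, edgeR adjusted p = 1.00).

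**Figure D3:**
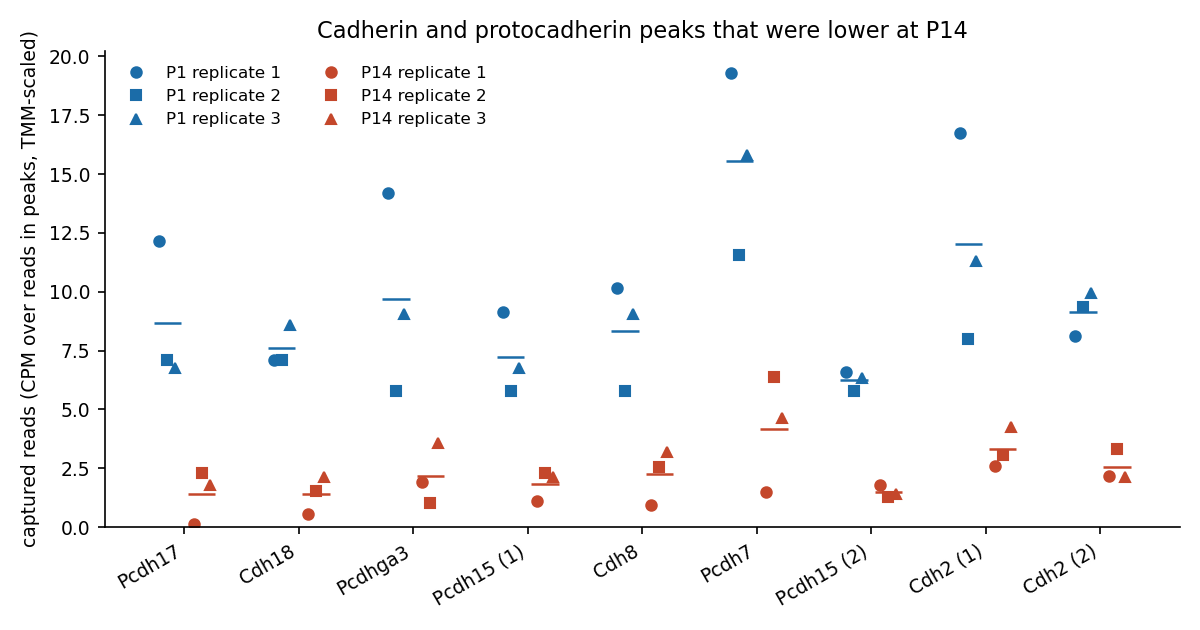
Captured reads (CPM over reads in peaks, TMM-scaled, vertical axis) in each library for the 9 lost peaks; blue symbols are the P1 libraries, red symbols the P14 libraries, and short lines the mean of each age. All P14 values lie below all P1 values at each peak, as they do at 2336 of all 2353 lost peaks, so the call nearly sets this. P1 replicate 1 is the highest at 7 of the 9.

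No region of the deposited table averages under 10.0 reads over the 6 libraries. A peak with few reads at P14 is thus present only through its P1 reads. The 9 lost peaks were all narrow, 547 to 863 bp, and held 10.3 to 24.7 reads per library on average. Their median density was 13.6 CPM per kb at P1 and 3.11 at P14, close to the 13.1 and 3.09 of all lost peaks of the table, a pattern that the call itself sets. All lay inside the span of their gene, and none of the 6 outside chromosome 18 touched its gene's promoter window. P1 replicate 1 was the highest library at 7 of the 9, as at 82.3% of the lost peaks of the whole table. Without it the 9 log2 changes ran from -2.61 to -1.57 and 2 passed (Cdh18 and the second Cdh2 peak), against 0.351% lost and 0.0455% gained of all peaks. Without P14 replicate 1 they ran from -2.16 to -1.44 and 0 passed, a fit in which no peak of the table passed in either direction. In that fit 31 of the 433 tested members had an unadjusted p under 0.05, with no count over all peaks to set beside.

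The clustered protocadherins sit in 3 arrays along chromosome 18. In the table each beta gene keeps its own name, while all alpha peaks of the set carry the name Pcdha10 and all its gamma peaks the name Pcdhga3. Peaks were therefore placed by the 58 RefSeq starts of 12 alpha, 22 beta, 19 gamma A and B and 5 C-type genes. A member peak lay in the first 2500 bp of 54 of the 58 genes: all 12 alpha, all 22 beta, 16 of 19 gamma and 4 of 5 C-type. In that stretch Pcdhga1 had a peak under no member name, and 3 genes had no peak. The array is thus covered almost gene by gene. The window from 250 bases before to 50 after the start touched a peak at 21 of the 58 genes (36.2%). The shares beside it are 7.58% of all RefSeq promoter windows and 0 of the 21 windows matched to members elsewhere. They are not the same measure. The clustered windows were set at the starts of RefSeq gene spans, the others at transcript starts, and the 2 can differ. The Pcdh15 span starts at 73096277, but its promoter window at 73821617.

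Peaks began at different places in the 3 arrays. The median distance from the gene start to the first base of the peak was -77 bp in the alpha genes, 16.5 bp in the gamma A and B genes and 702.5 bp in the beta genes. Where a gene had 2 peaks in its first 2500 bp, that with the higher mean CPM was taken. At Pcdhga11 this peak began at 1475 bp, while its other peak touched the window around the start. Counting any peak, that window touched one at 8 of 12 alpha and 10 of 19 gamma genes, and at 1 of 22 beta genes, Pcdhb13. Most beta peaks thus began downstream of the gene start. Pcdhac1 and Pcdhgc5, of the C-type genes that in neurons are not chosen at random, had the window in a peak, while Pcdhac2, Pcdhgc3 and Pcdhgc4 did not.

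**Figure D4:**
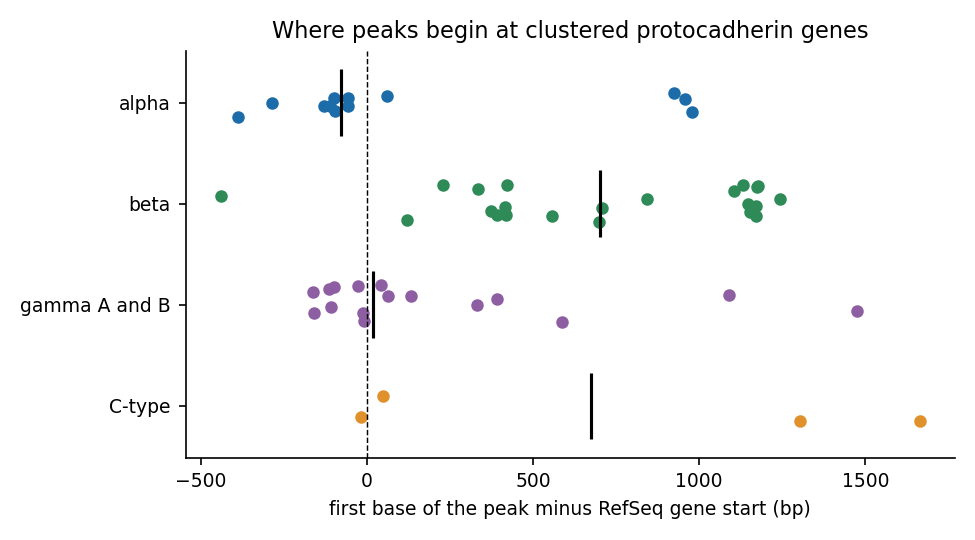
First base of the peak minus the RefSeq gene start (bp, horizontal axis) for the clustered genes with a member peak in their first 2500 bp. Each point is 1 gene, shown by its peak with the highest mean CPM there, the black bar the median of the group and the dashed line the gene start. Alpha and gamma peaks gather around the start, with medians of -77 and 16.5 bp, while beta peaks begin downstream, at a median of 702.5 bp.

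Of the 65 tested clustered peaks 1 was lost (1.54%) and 0 gained, against 8 of 368 (2.17%) and 0 elsewhere in the set. The clustered peaks were wider, with a median of 1910.5 bp against 825.5 bp, and held more reads, 40.8 per library at P1 against 15. At 1200 bp or more, 0 of 54 clustered and 0 of 85 other members were lost, against 0.611% of all peaks of that width, and below it 1 of 11 and 8 of 283, against 3.08%. Elsewhere on chromosome 18, 107 of 3031 peaks were lost (3.53%).

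The median log2 change was 0.13 over the clustered peaks and 0.02 over the other members, a difference of 0.105 that was not stable. It was -0.0033 without P1 replicate 3, and -0.06 with the share of reads in peaks as a covariate, which runs with age. Both medians were below 0 with the covariate (-0.09 and -0.03). Without P14 replicate 1 the medians were 0.04 and 0.02. The 3 P14 libraries, each set against the P1 mean, gave differences of 0.16, 0.04 and -0.01, so P14 replicate 1, with the most reads in peaks, had the largest. The clustered peaks took 0.127%, 0.119% and 0.113% of the reads in peaks at P1 and 0.163%, 0.131% and 0.126% at P14, and the highest P1 library lay just above the lowest P14 library. The other members took 0.306%, 0.307% and 0.316% and then 0.369%, 0.331% and 0.328%, with every P14 library above every P1 library. Both sets of shares carry no trimmed-mean factors, without which the median log2 change of all peaks was 0.147.

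By position, the median was 0.21 over 12 peaks at alpha starts, 0.22 over 23 at beta starts, 0.06 over 18 at gamma starts and 0.01 over 4 at C-type starts. Of these 57 peaks, 8 were higher and 1 lower at an unadjusted p under 0.05, against 2.36% and 5.25% of all peaks, and 0 passed after adjustment. The balance over all peaks differs with width. At 1200 bp or more, 924 of all 25518 tested peaks were higher and 692 lower, beside 8 and 1 of 54 clustered peaks. The smallest p was at Pcdhb3 (37301975 to 37303357), with 22, 21 and 14 reads and then 150, 44 and 43. The ages did not overlap there, and the log2 change was 0.84 (SE 0.31, edgeR adjusted p = 0.259). Its neighbour Pcdhb4 had 0.76, and Pcdhb9 and Pcdhb10, further along, had 0.72 each. At the gamma end, Pcdhga12 had 0.61, and the adjacent C-type genes went apart in value, with 0.52 at Pcdhgc5 and -0.66 at Pcdhgc4. The highest clustered level was at Pcdhgb7 (37751682 to 37754552), at 41.5 ± 7.59 and 45.4 ± 5.50 CPM (SD, n = 3), with overlapping ages and a log2 change of 0.14 (SE 0.22).

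The lost clustered peak lies in the gap between the last gamma A and B gene and the C-type genes, at 37784841 to 37785553, 19.6 kb after the start of Pcdhga12 and 21.2 kb before that of Pcdhgc3. It held 28, 13 and 20 reads in the P1 libraries and 14, 4 and 10 in the P14 libraries, or 9.68 ± 4.25 against 2.17 ± 1.29 CPM (SD, n = 3). This was a 4.61-fold lower level with no overlap (log2 change -2.20, SE 0.50, edgeR adjusted p = 0.0286). The next peak in the same gap, 37796199 to 37796918, held 38, 9 and 21 reads and then 12, 14 and 11, and its log2 change of -1.91 just missed the threshold (edgeR adjusted p = 0.0506). Both are narrow, 713 and 720 bp, and neither lies within 2500 bp after a gene start. DESeq2 called 2 clustered peaks lost.

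**Figure D5:**
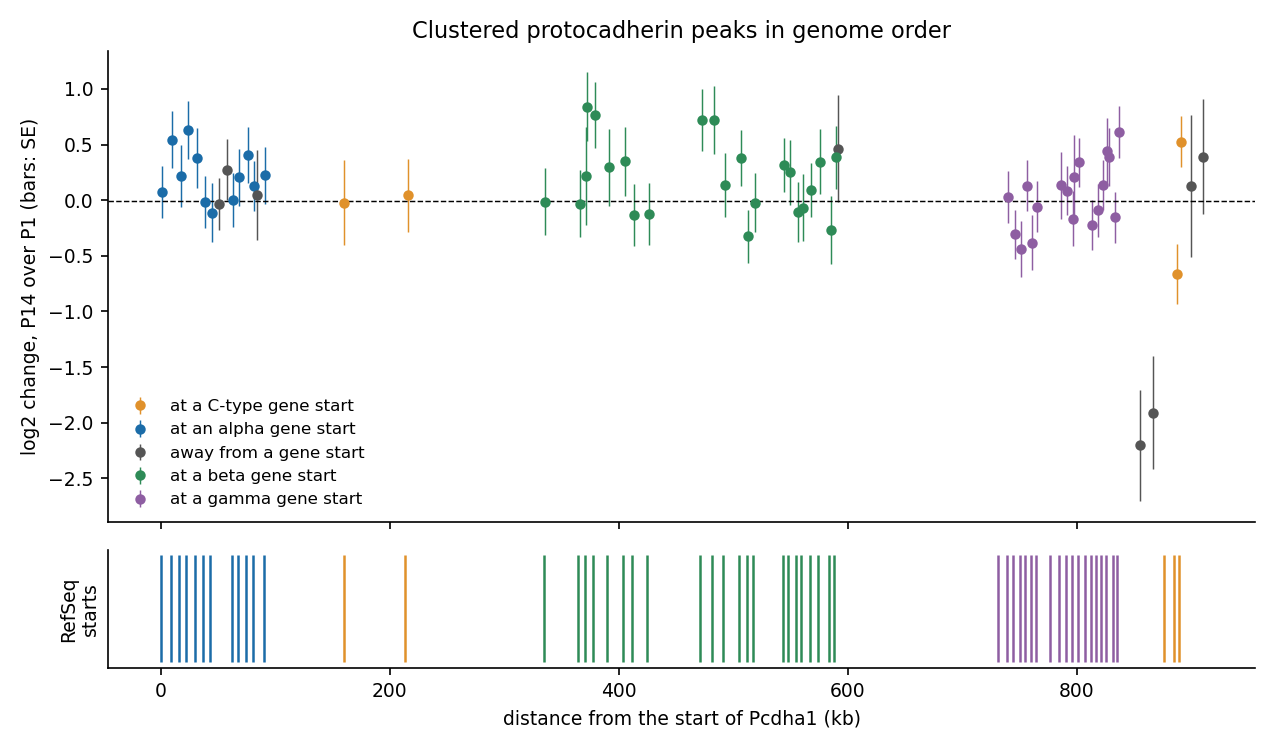
Upper panel, log2 change (P14 over P1, points, with bars of 1 SE) of the 65 tested clustered peaks by distance in kb from the start of Pcdha1, coloured by the gene group whose start they lie at; lower panel, the 58 RefSeq gene starts in the same colours. Peaks at gene starts lie between -0.66 and 0.84, and the 2 lowest points, at -2.20 and -1.91, lie between the gamma genes and the last C-type genes.

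The genes that work with cadherins at the junction were read from a list of 21 partners, of which 20 have peaks. Of their 143 tested peaks, 7 were lost (4.9%, against 2.43% of all peaks) and 0 gained, in 3 genes. Ctnna3, the alpha-T-catenin of the intercalated disc, had 4 of them. Its strongest (chromosome 10, 63649428 to 63650743) held 26, 25 and 31 reads and then 5, 6 and 13, a 6.55-fold lower level (log2 change -2.71, SE 0.50, edgeR adjusted p = 0.0243). Pkp4, a plakophilin relative of the p120-catenin family, had 2 (-2.06 and -2.18), and Ctnnbip1, an inhibitor of beta-catenin, had 1 (-2.69). The genes of beta-catenin (Ctnnb1), plakoglobin (Jup) and vinculin (Vcl) had no lost peak. Of 166 tested peaks in other genes of the cadherin superfamily 2 were lost (1.2%) and 0 gained. They lie in Dsg2, the desmosomal cadherin of the heart, with 25, 16 and 20 reads and then 9, 13 and 4 (log2 change -2.28, SE 0.48, edgeR adjusted p = 0.0257), and in Fat4, a giant cadherin of tissue polarity (-2.16, SE 0.51, edgeR adjusted p = 0.0329).

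Peaks at marker genes of heart cell types were counted beside these. At cardiomyocyte markers 10 of 72 tested peaks were lost (13.9%, against 2.43% of all peaks), 9 of them in the long calcium channel gene Ryr2 and 1 in Ttn. At endothelial (61 tested), fibroblast (26), smooth muscle and pericyte (34), blood (10) and neural or Schwann cell markers (9), 0 were lost, and 0 were gained in any list. These counts give no cell shares, and the part of a shift in cell mix in the lost members was not tested.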

How the data were processed

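Methylated DNA was captured and sequenced in 3 libraries per age, and the deposited table gives whole-number read counts per region, made by the authors, with no scaling for library size or region width. Tools listed in the submitters' processing notes, with no role stated, are edgeR 3.2.4, bedtools, MACS and BWA, and the build is mm10 (GRCm38). How peaks were called and whether duplicate reads were kept is not given in the sources used here. Of 221524 lines, 7567 repeat an interval for a further gene, and these were collapsed. Peaks and the stretches between them alternate in the table and were told apart here by region borders, gene names and, for 56202 regions, read density, a rule that gave the same answer for 94.6% of the regions settled otherwise. Starts were written as 1-based.

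Peaks were tested with edgeR 4.0.16 in R 4.3.3 (glmQLFit and glmQLFTest, TMM factors, filterByExpr with total library sizes, age as the only term, Benjamini-Hochberg threshold 0.05), and DESeq2 1.42.0 and limma-voom (limma 3.58.1) were alternatives. Standard errors were taken as the size of the log2 change over the root of F. Tested on simulated data over the 96772 peaks, the fit found 79 of the 100 peaks given a 4-fold change but 6 of the 100 given a 2-fold change, and 11 of its 96 calls were false. Only these peaks were changed, as many up as down, whereas the data gave 2353 lost and 102 gained. Simulated libraries of an age shared 1 mean per peak, scaled to library size. The shares found are thus not the sensitivity of the fit in these libraries. The p-values measure the spread between these libraries. RefSeq spans and promoter windows are those of GRCm38.p6. The peaks named with values are all calls, the 3 with the smallest p in each direction and the highest level of each structural group. Also named are the smallest p of 7 genes known in heart cells and peaks at their own promoter window. Outside the clusters there were none of the last kind, but only 18 of the 29 genes had a window to check. Further peaks with a log2 change near or below -1, and the clustered, Cdh15 and Pcdh19 peaks outside this rule, were chosen after their values were seen. Members, gene lists and tests were chosen with earlier results of these data known.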

Additional observations from a re-analysis of the deposited data

How the results depend on the processing

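The 9 calls among members, all lost, depended on the processing. Each of these 9 peaks had a log2 change below 0 in every alternative run. The runs reuse the counts that picked these peaks, so the shared sign is no separate support. The count of calls over all peaks of the table is given beside each run. Without TMM factors there were 3 calls (73 gained and 674 lost over all peaks), with limma-voom 16 (102 and 4197), without the filter on low reads 15 (114 and 2636), with DESeq2 10 (88 and 2589), and scaled to reads between peaks 65, of which 64 were gained (9443 and 113). With the share of reads in peaks as a covariate there were 0, over all distinct regions 0, and without P14 replicate 1 0, but these fits called 0 peaks of the whole table in either direction, so their 0 says nothing of the members. Of the 433 tested members, 14, 175 and 31 had an unadjusted p under 0.05 in them, with no count over all peaks to set beside. Leaving out 1 library gave 0 to 5 calls: 0 without P1 replicate 3 (9 gained and 914 lost over all peaks), 2 without P1 replicate 1 (44 and 340), 4 without P1 replicate 2 (28 and 922), 5 without P14 replicate 2 (49 and 1296) and 4 without P14 replicate 3 (75 and 1403). Leaving out both libraries numbered 1 gave 1 call (40 and 287), and the fit over all distinct regions without P14 replicate 1, chosen after seeing the data, gave 3 (351 and 26).

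With the replicate number as a block (replicate block) 0 members and 0 peaks of the whole table were called. An unadjusted p under 0.05 was found at 36 of the 433 tested members, with no count over all peaks to set beside. Libraries with the same number did not deviate together over peaks (r = -0.052, -0.048 and 0.016 for numbers 1 to 3), so the numbers were not treated as pairs.

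The member median of 0.0385 was 0.779 over all distinct regions, 1.16 scaled to reads between peaks, 0.191 without TMM factors, -0.0259 with the covariate and 0.476 over all regions without P14 replicate 1, and 0.0197 to 0.0895 when 1 library was left out. The clustered median minus that of the other members, 0.105, was -0.0612 with the covariate and -0.00332 to 0.159 when 1 library was left out. A median of 15 to 16 reads per member peak in P1 libraries limits which changes can be called. The cause of these shifts was not tested.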
